A study of Mus musculus with 28 samples.

Results

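Single hippocampal neurons drawn up by pipette were compared between living tissue and culture: 3 libraries from neurons in acute brain slices and 3 from cultured neurons, 6 of the 28 libraries of the series, chosen by the source name in the labels. The tissue neurons came from coronal slices of C57BL/6 mice aged 8 to 10 days that had rested in artificial cerebrospinal fluid for 90 min, and were untreated. The cultured neurons came from C57BL/6 mice, were kept 7 to 9 days on coverslips, and were untreated as well. The age of the mice behind the cultures is not given in the labels. In all 6, the RNA of the cell was amplified linearly over 3 rounds of in vitro transcription before paired-end sequencing of polyadenylated RNA. A library stands for 1 cell. No label names an animal, slice or coverslip, so cells cannot be assigned to animals. Each setting therefore counts as 1 sample, no test was run, and differences are given by their size beside the spread over the 3 cells of each setting.

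The tissue libraries are named as pipette collected in their source name and as untreated, but their titles carry the name Tiva and their protocol text describes TIVA, a light-activated tag that captures the polyadenylated RNA of 1 chosen cell, in the CA1 field of the hippocampus. In that protocol the imaged field around the chosen cell is aspirated with it. The source name was followed here. How these 3 cells were in fact collected could not be settled from the labels, and a difference between tissue and culture cannot be told apart from a difference in collection.

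The hippocampus is a cortical structure needed to form memories of places and events, and its main excitatory cells, the pyramidal neurons, carry information out of the CA1 field. In a fresh slice a neuron keeps much of its dendritic tree and its local synaptic partners. A neuron put into culture has been dissociated, has lost its processes, and has regrown them on a flat surface. The amplified RNA of a single cell passes through many copying steps, so a transcript present in few copies can be lost in one cell and kept in another.

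The tables list 28661 features under UCSC known-gene identifiers, of which 11967 join several identifiers, up to 44. No gene symbol could be attached, since no names stand beside the identifiers in the files and 0 of the 55419 single identifiers were found in the tables of names. Features are for this reason described by number and level, only 4 are named by identifier, and the neuronal identity of the cells could not be checked against marker genes. Reads of near-identical copies and of overlapping or antisense features could not be separated. Assigned reads were 7.83, 6.64 and 11.6 M (M stands for 1000000) in the tissue libraries and 9.89, 11.3 and 32.9 M in the cultured libraries. Reads outside every feature made up 18.9%, 30.3% and 15.8% of all counted reads in tissue and 67.5%, 75.3% and 31.5% in culture.

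Tissue neurons held fewer features than cultured neurons at every depth examined. With each library thinned to 6.64 M reads, the smallest total of the 6, the tissue neurons held 9284, 9472 and 9979 features with 1 read or more (SD 359, n = 3), against 20393, 19207 and 16649 in the cultured neurons (SD 1913, n = 3). Every tissue neuron lay below every cultured neuron, and the difference of the medians was -9735 features, a ratio of 0.493. The tissue library with the highest share of reads outside features, at 30.3%, held 9472 features, and the cultured library with the lowest such share, at 31.5%, held 16649. The part of these scattered reads in the difference was not tested further.

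The ratio depended on depth when more than 1 read was asked for. At 0.1 M reads per library, medians of 5796 features in tissue and 10331 in culture had at least 1 read, a ratio of 0.561. At that depth 2137 features in tissue and 2291 in culture had 10 reads or more, a ratio of 0.933. At the common depth the ratio for 10 reads or more was 0.503, from medians of 6984 in tissue and 13875 in culture. The settings thus held similar numbers of abundant features, and differed in the features that came into view as depth grew. At 6.64 M reads exactly 1 read supported a median of 963 features in tissue (range 669 to 1038) and 1536 in culture (range 1447 to 1565), so single reads made up a small part of the gap.

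**Figure D1:**
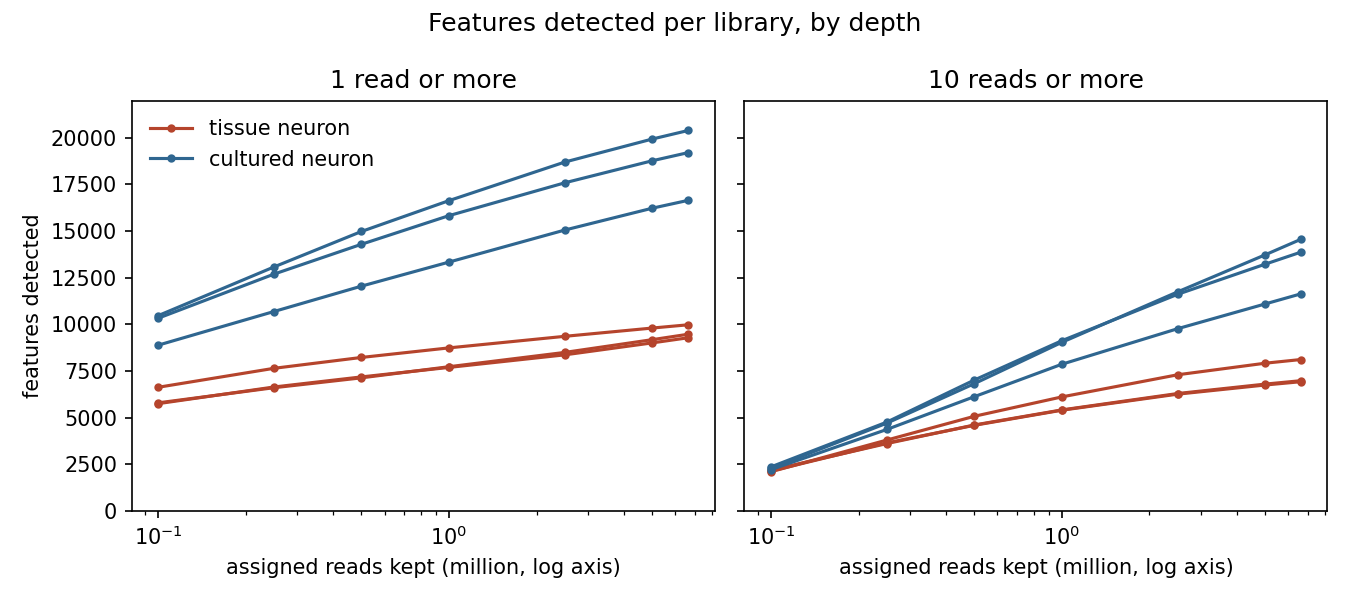
Features detected in each library (vertical axis, number of features) against the assigned reads kept after thinning (horizontal axis, M reads, log axis), at 1 read or more on the left and at 10 reads or more on the right, with 1 line per library. The 3 tissue neurons run below the 3 cultured neurons at every depth on the left, with 9284 to 9979 against 16649 to 20393 features at 6.64 M reads.

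Nearly all features of the 3 tissue neurons together were also found in culture. Of the 7119 features detected in all 3 tissue neurons at the common depth, 7070 were detected in all 3 cultured neurons, or 99.3%. In the other direction, 7070 of the 15175 features of all 3 cultured neurons were detected in all 3 tissue neurons, or 46.6%. This share could hardly be higher, since only 7119 features were detected in all 3 tissue neurons, so the 2 shares largely restate the sizes of the sets. Of these 15175, 3761 were detected in no tissue neuron and 4344 in 1 or 2 of them. The mirror image was nearly empty, since 4 features were detected in all 3 tissue neurons and in no cultured neuron. These 4 averaged a median of 11.0 CPM in tissue (CPM is the count of a feature per 1000000 assigned reads of the library) and took 0.00218% to 0.0162% of the reads of a tissue neuron.

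Features seen in a single tissue neuron were mostly not peculiar to tissue. Of the 2716 features detected in exactly 1 of the tissue neurons, 2153 were found in all 3 cultured neurons, or 79.3%. Of the 3004 features detected in exactly 1 cultured neuron, 10 were found in all 3 tissue neurons, or 0.333%. For comparison, 15175 of all 28661 features were found in all 3 cultured neurons and 7119 in all 3 tissue neurons. The features shared by all 6 cells carried most of the RNA in both settings: their share was 96.2% of tissue reads by the median (95.7% to 96.2%) and 90.8% of culture reads (89.3% to 94.0%).

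**Figure D2:**
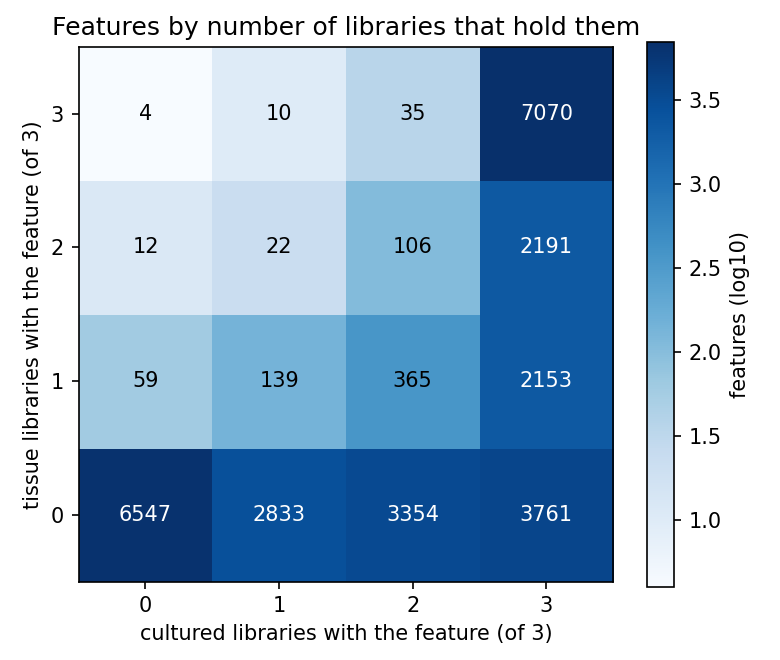
Numbers of features by how many of the 3 tissue libraries (vertical axis) and how many of the 3 cultured libraries (horizontal axis) held at least 1 read of them at 6.64 M reads, with the colour giving the number on a log10 scale. The cell for all 6 libraries holds 7070 features, the cell for all 3 cultured and no tissue libraries 3761, and the opposite corner 4.

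The 3761 features of culture alone were of low abundance. Their median level over the cultured neurons was 2.13 CPM, and together they made up 1.87% of a cultured neuron's reads by the median (0.976% to 2.54%). Libraries that had played no part in choosing them held many of these features. At the same depth, 2261 of the 3761, or 60.1%, were detected in all 3 bulk hippocampus libraries, against 53.5% of all 28661 features. In bulk tissue, which holds neurons and glia together, fewer cells of a type and less RNA per cell cannot be told apart. Of the 5 hippocampal tissue neurons captured by TIVA, at least 1 held 1587 of these features, or 42.2%, against 47.6% of all features, and all 5 of them held 45, or 1.20%, against 22.9% of all features. At least 1 of the 4 cultured TIVA neurons held 3331, or 88.6%, against 67.2% of all features. All features include many that none of the 6 libraries held. Among the 15175 features of all 3 cultured neurons, from which the 3761 come, every one of these shares was higher. It was 88.8% in all 3 bulk libraries and 97.0% in at least 1 cultured TIVA neuron. For tissue TIVA neurons it was 82.2% in at least 1 and 43.0% in all 5.

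The difference in numbers lay at low and middle levels. Tissue neurons held a median of 1894 features between 1 and 10 CPM (1859 to 2320), against 5649 in cultured neurons (4546 to 6833). Between 10 and 50 CPM the medians were 2185 in tissue (2155 to 2815) and 4999 in culture (4186 to 5128). Between 50 and 200 CPM they were closer, at 2093 (2049 to 2234) and 2874 (2606 to 2879). From 200 to 1000 CPM tissue neurons held more, 975 (928 to 1023) against 888 (887 to 915), and at 1000 CPM or more the ranges overlapped, with 119 (107 to 131) against 108 (102 to 116).

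Reads were more concentrated in the tissue neurons. The single most abundant feature took 4.21%, 2.86% and 5.19% of the reads in tissue and 0.912%, 1.03% and 1.09% in culture. The 50 most abundant features took 22.3%, 21.6% and 24.2% in tissue and 15.4%, 14.2% and 18.3% in culture, a difference of medians of 6.91 percentage points with no overlap. The most abundant 402 features (395 to 413) held 50% of the reads of a tissue neuron, against 709 (551 to 733) in a cultured neuron. For 99% of the reads, 5259 features (5237 to 6188) were needed in tissue and 11267 (9167 to 11779) in culture. Levels in CPM are shares of a library, so a more concentrated library leaves fewer reads for all other features.

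Absence from a tissue neuron depended strongly on the level of the feature. Features were sorted by their mean level over the cultured neurons, and the share with 0 reads in a tissue neuron at the common depth was counted; 0 reads there allows up to 0.452 CPM, by counting error alone. Among the 2089 features at 10 to 20 CPM in culture, a median of 38.2% were missing from a tissue neuron (30.5% to 39.4% over the 3 cells). At 20 to 50 CPM the share was 16.1% (10.8% to 16.5%), at 50 to 100 CPM 4.85% (2.31% to 5.37%), and at 100 to 200 CPM 1.72% (1.36% to 1.99%). From 500 CPM upwards, none of 292 culture features was missing from any of the 3 tissue neurons.

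Sorted the other way, by level in tissue, few features were missing from culture: a median of 1.74% at 10 to 20 CPM (0.765% to 2.16%), and none from 200 CPM upwards in any of the 3 cultured neurons. Tissue neurons also missed the features of each other. When 2 tissue neurons set the level, the remaining one lacked 20.2% of what they held at 10 to 20 CPM by the median (12.9% to 20.3%). At 20 to 50 CPM this was 13.7% (11.9% to 13.9%) and at 50 to 100 CPM 6.51% (4.98% to 7.03%), close to the shares of culture features missing from tissue at these levels. Between cultured neurons the median was 0.191% at 10 to 20 CPM, with a highest value of 4.38%.

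A stricter view asked for 50 CPM or more in every cell of a setting. Of the features that abundant in all 3 cultured neurons, 5 had 0 reads in all 3 tissue neurons, and 6 to 14 when any 1 library was left out, with 8 without the first tissue neuron, 10 without the second, 14 without the third and 9 without the third cultured neuron. No feature that abundant in all 3 tissue neurons had 0 reads in all 3 cultured neurons. For scale, a single neuron held a median of 3199 features at 50 CPM or more in tissue and 3870 in culture. The number that reached this level in all 3 cells of a setting cannot exceed these medians and is not given here. At this level, features present in all cells of one setting and absent from all of the other were thus few in both directions. At a limit of 10 CPM there were 86 such features of culture and 1 of tissue. At the common depth, a tissue neuron lacked a median of 1.39% of the abundant culture features, and 2.20% without the third cultured neuron.

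**Figure D3:**
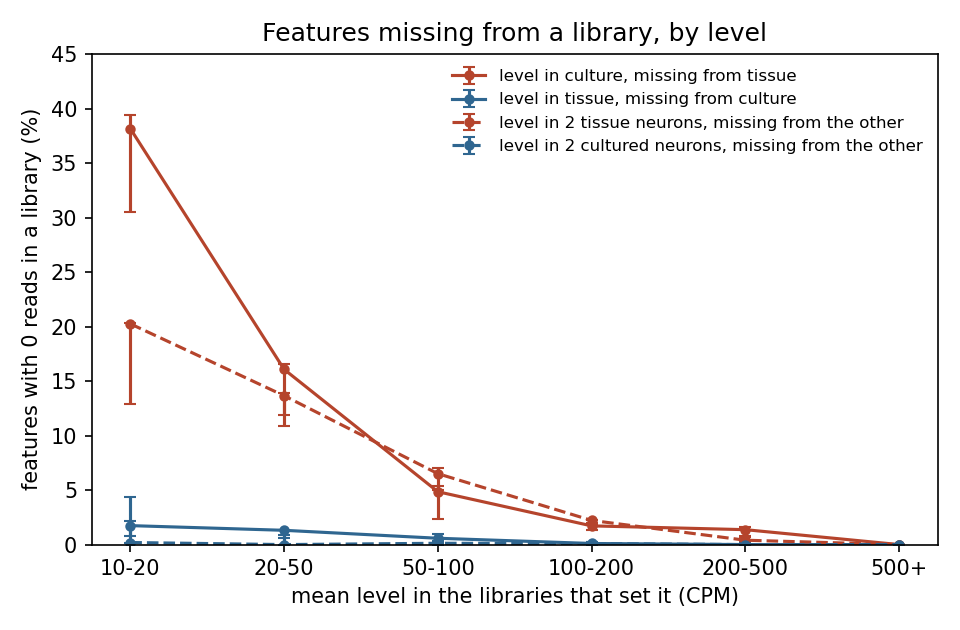
Share of features with 0 reads in a library at 6.64 M reads (vertical axis, percent) by their mean level in the libraries that set the level (horizontal axis, CPM bands); points are medians over 3 libraries and bars run from the lowest to the highest. Solid lines compare the settings and broken lines compare cells of the same setting. Both red lines, for features missing from tissue neurons, fall from 38.2% and 20.2% at 10 to 20 CPM to 0% at 500 CPM or more, and both blue lines, for features missing from cultured neurons, have medians under 2%.

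Levels were compared for 8294 features whose mean across the 6 libraries reached 10 CPM, as differences of mean log2(CPM + 10), tissue minus culture; the 10 CPM added to each value makes the differences of low features smaller. The median difference was -0.53, and the central 50% of features lay between -1.28 and 0.22. With a limit of 4-fold, a log2 difference of 2, 135 features were higher in tissue (1.63% of the features compared) and 646 lower (7.79%), 9.42% in all. Of these, 113 of the higher (1.36% of the features compared) and 596 of the lower (7.19%) had no overlap between the cells of the settings. Within 0.1 of the limit, 15 higher features were just past it and 29 just short, and 106 lower ones were past and 128 short. Without regard to size, every tissue neuron lay above every cultured neuron for 5.84% of the features and below for 25.9%.

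Which side held more features depended on the scaling. When the 50 most abundant features were kept out of the library totals, the median difference was -0.51, and 177 features were past 4-fold higher in tissue and 734 lower, close to the split by CPM. With TMM the median difference was 0.025, and 335 features were past 4-fold higher in tissue and 256 lower. With DESeq2 size factors it was 0.12, with 375 higher and 214 lower. Taken relative to the median of all features, a choice made after seeing the data, the CPM differences gave 333 higher and 217 lower. All 135 higher features and 214 of the 646 lower ones were past 4-fold under CPM, TMM and DESeq2 scaling alike. The sets were nested, because TMM and DESeq2 scaling moved the differences upwards from a median of -0.53 by CPM. Features past 4-fold higher by CPM therefore stayed past it, and their overlap over the scalings is no separate support for them. The 214 had a median level of 4.63 CPM in tissue and 123 CPM in culture. Without the second tissue neuron 206 features were past 4-fold higher by CPM, and without the third 227. The median difference approached 0 as the level grew: it was -0.69 at 10 to 20 CPM, -0.50 at 50 to 100 CPM and 0.0023 at 500 CPM or more, over 1903, 1681 and 289 features.

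**Figure D4:**
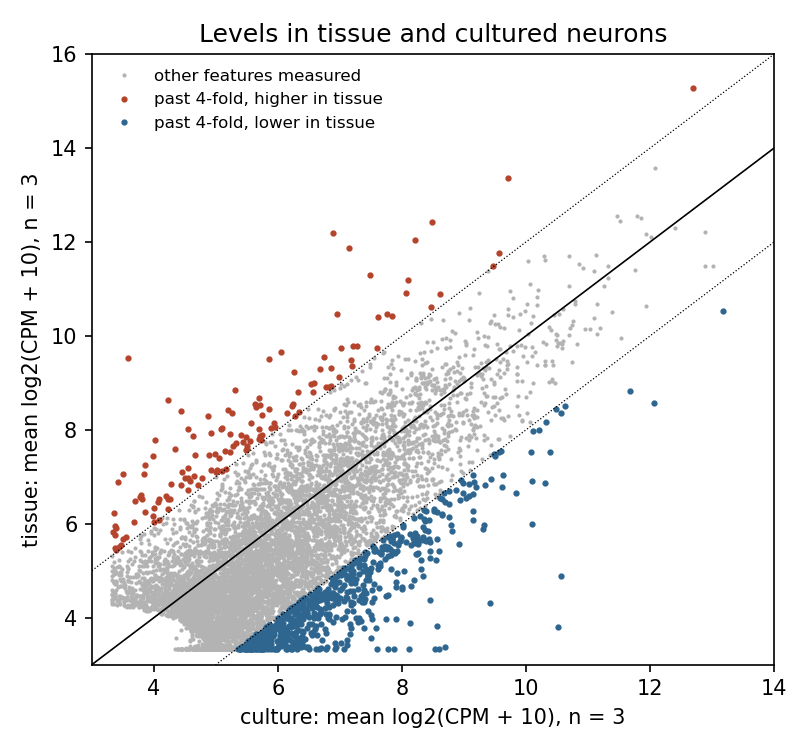
Mean log2(CPM + 10) over the 3 tissue neurons (vertical axis) against that over the 3 cultured neurons (horizontal axis), with 1 point for each of the 8294 features compared; the solid line marks equal levels and the dotted lines 4-fold differences. Red points are the 135 features past 4-fold higher in tissue and blue points the 646 past 4-fold lower, by CPM; with TMM these counts were 335 and 256, and with DESeq2 size factors 375 and 214.

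Tissue neurons also varied more from cell to cell. The median SD of log2(CPM + 10) over the 3 cells of a feature was 0.97 in tissue and 0.38 in culture. In tissue it was 1.20 among features at 50 to 100 CPM and 0.53 at 500 CPM or more, while in culture it stayed between 0.36 and 0.42 at every level. Correlations between libraries, across the same features, which are not independent replicates, gave a similar picture: r was 0.531, 0.579 and 0.613 between tissue neurons and 0.813, 0.877 and 0.897 between cultured neurons. Between the settings the median was 0.567 (0.527 to 0.686). A tissue neuron was thus about as far from another tissue neuron as from a cultured one. The tissue pipette neurons had a median r of 0.569 with the 5 hippocampal tissue TIVA neurons (0.511 to 0.689) and of 0.595 with the 4 cultured TIVA neurons (0.507 to 0.671). The cultured pipette neurons had higher medians with both, 0.654 with the tissue TIVA neurons (0.569 to 0.757) and 0.752 with the cultured TIVA neurons (0.583 to 0.795). With bulk hippocampus the median r was 0.639 for tissue pipette neurons (0.592 to 0.716) and 0.733 for cultured ones (0.661 to 0.765).

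The median log2 difference changed little with the number of identifiers joined in a feature, a rough count of its annotated isoforms. It was -0.53 in the 2608 features with 1 identifier and -0.44 in the 1219 with 5 or more. Features past 4-fold were a smaller part where more identifiers were joined. Those lower in tissue made up 9.09% and 6.64% of these classes, and those higher 2.11% and 1.31%.

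The 135 features higher in tissue carried a sizeable part of the RNA there. Their share of reads was 13.6% in tissue (12.4% to 13.7%) and 1.86% in culture by the medians, and their median level was 275 CPM in tissue and 29.7 CPM in culture. The 646 lower features made up 1.45% to 2.41% of tissue reads and 10.9% to 14.7% of culture reads, with median levels of 10.4 CPM in tissue and 98.2 CPM in culture. Of the 646, 28 had 0 reads in all 3 tissue neurons, against 127 of all 8294 features compared. None of the 135 had 0 reads in all 3 cultured neurons. As only 5 of the 8294 did, this says nothing particular about the 135. These values describe the features chosen on them.

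By the rule for named features, given with the processing, the 2 with the greatest differences on each side are named. The feature uc007war.1, which joins 4 identifiers, had 750.3, 408 and 1245 CPM in the tissue neurons, against 1.21, 0.796 and 3.98 CPM in the cultured neurons. It was high in all the tissue cells and close to absent in the cultured ones, with a ratio of mean CPM of 401 and a log2 difference of 5.95. By mean level it ranked 157 of all features in tissue and 13351 in culture. Summed over cells, 23080 reads in tissue gave 884 CPM (872 to 895), and 152 reads in culture gave 2.81 CPM (2.38 to 3.29), with exact 95% Poisson intervals that cover counting error only. The feature uc009lwp.1, which also joins 4 identifiers, had 9894, 4086 and 2509 CPM in tissue, against 82.2, 75.5 and 203 CPM in culture. Each tissue cell was far above each cultured cell, 45.7-fold by the means and 5.30 on the log2 scale, and the feature ranked 9 in tissue and 1763 in culture.

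On the other side, uc008ada.2, which joins 5 identifiers, had 2.55, 0.151 and 11.4 CPM in the tissue neurons, from 20, 1 and 133 reads, against 1470.3, 1216 and 1688 CPM in the cultured neurons. The cultured cells lay close together and the tissue cells were all low, and the log2 difference was -6.70. It ranked 8143 in tissue and 57 in culture. The feature uc009jeg.1, which joins 2 identifiers, had 0.383, 9.49 and 120.3 CPM in tissue, the lowest from 3 reads, against 1575, 1671 and 1279 CPM in culture. The tissue cells were spread widely below the cultured ones, with a log2 difference of -5.66, and the feature ranked 3763 in tissue and 51 in culture.

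The same 4 features were then read in libraries that the choice had not used. In hippocampal TIVA neurons uc007war.1 ranged over 0.264 to 407 CPM in the 5 tissue cells (median 165) and over 3.43 to 24.8 CPM in the 4 cultured cells (median 5.18), with 1 of the 5 tissue cells below all the cultured ones. For uc009lwp.1 the medians were 3103 CPM in tissue (1760.1 to 3776) and 464 CPM in culture (211 to 1539), with no overlap. The tissue TIVA neurons had 0, 0, 224, 0.207 and 298 CPM of uc008ada.2, against 174, 184, 309 and 236 CPM in the cultured TIVA neurons, so that 3 of the 5 tissue cells were at or near 0 and 2 lay within the range of culture. For uc009jeg.1 the tissue TIVA median was 75.03 CPM (33.6 to 449) and the cultured TIVA median 449 CPM (316 to 653), with overlapping ranges. The mean levels in bulk hippocampus lay between the means of the tissue and cultured pipette neurons for each of the 4, at 42.0 CPM of uc007war.1, 850.2 of uc009lwp.1, 172 of uc008ada.2 and 168 of uc009jeg.1.

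**Figure D5:**
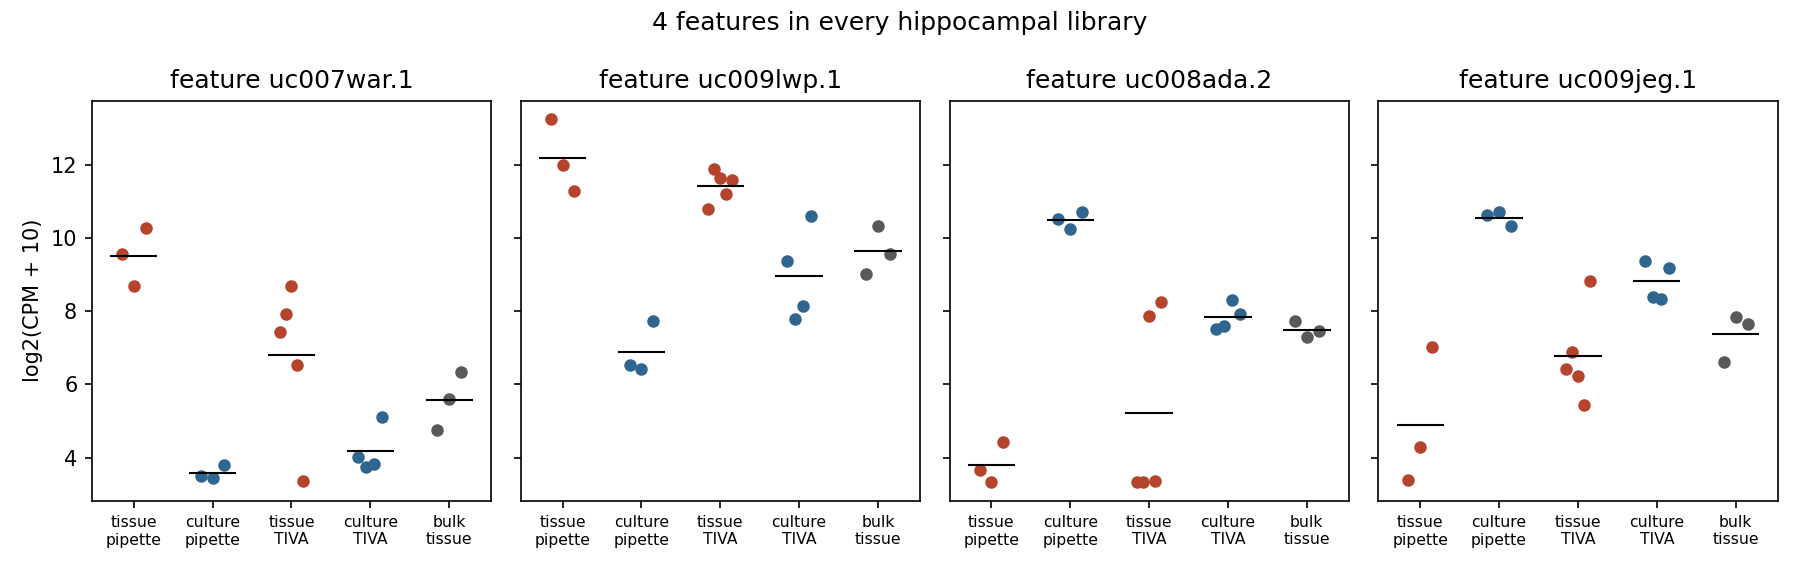
Level of 4 features in each hippocampal library (vertical axis, log2(CPM + 10); 1 point per library, black bars at the group means) for tissue and cultured pipette neurons, tissue and cultured TIVA neurons and bulk tissue. The first 2 features were chosen as higher in tissue pipette neurons than in cultured ones and the last 2 as lower; in TIVA neurons all 4 keep the direction of the means, with overlap except for uc009lwp.1.

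For the whole sets, hippocampal TIVA neurons gave a comparison of tissue with culture that shares no library with the pipette one. Among the 8294 features, 58.5% were higher and 41.5% lower in tissue by TIVA, by difference of mean log2(CPM + 10). Of the 135 features past 4-fold higher in tissue by pipette, 108 were also higher by TIVA, or 80.0% (95% exact binomial interval 72.3% to 86.4%, counting features as independent, which they are not). Of the 135, 39 were past 4-fold higher by TIVA too, or 28.9%, against 2.53% of all features. Another 11 of the 135 were past 4-fold lower, or 8.15%, against 0.868% of all features. Both shares past 4-fold, in the same and in the opposite direction, thus exceeded those of all features. The comparison was not matched for level. In tissue pipette neurons the 135 had a median of 275 CPM, against 36.7 CPM for all features compared. None of the 1903 features at 10 to 20 CPM was among them. The 10 CPM added to each value makes a 4-fold difference harder to reach for low features, in either direction. By pipette, 113 features were past 4-fold higher with ranges apart. By TIVA, 17 of these were past 4-fold higher with ranges apart, or 15.0%, and 10 were past 4-fold lower, or 8.85%. Among all features 1.83% were past 4-fold higher in tissue by TIVA with ranges apart and 0.615% lower. The median TIVA difference of the 135 was 1.17, against 0.18 for all features.

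The 646 lower features were nearer to the background. By TIVA 309 of them were lower in tissue, or 47.8% (43.9% to 51.8%), and 17 were past 4-fold lower, or 2.63%, against 0.868% of all features. Their median TIVA difference was 0.04. Another 9 were past 4-fold higher, or 1.39%, against 2.53% of all features. With the same 646 and 135 features and the TIVA libraries scaled by DESeq2 size factors, a choice made after seeing the data, 379 of the 646 were lower by TIVA, or 58.7%, against 52.7% of all features, and 102 of the 135 were higher, or 75.6%, against 47.3%. When the 50 most abundant features were kept out of the TIVA scaling, 68.1% of the 646 were lower, against 66.4% of all features, and 63.7% of the 135 were higher, against 33.6%. In the libraries that the choice had not used, the 646 had median levels of 51.0 CPM in tissue TIVA neurons, 37.2 CPM in cultured TIVA neurons and 46.3 CPM in bulk hippocampus, and the 135 had 139, 37.8 and 86.3 CPM.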

How the data were processed

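For each library the authors deposited read counts per feature, as whole numbers with no header. Per the submitters' processing notes, CASAVA 1.8.1 and HTSeq (version not given) were used with the mouse build mm9. Not given in the sources used here are the aligner, how overlaps were counted and whether strand was used. The 5 HTSeq summary lines name no feature and were left out of library totals; 3 of them are 0 throughout. Groups follow the source name, and replicate numbers the order of records. Counts of cells within a setting differed by a chi-square of at least 80.9 per degree of freedom, so none was merged.

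Each count was scaled to CPM of assigned reads. Libraries were thinned once, without replacement, to 6639944 reads. A count of 0 allows up to 3 reads; such limits and the Poisson intervals cover counting error only. Named features were past 4-fold, had at least 10 reads in each cell of the higher setting and ranges apart, which 112 higher and 596 lower features met; they were ranked by log2 difference and, with no symbols, the first 2 of each side are printed. For the same reason the marker lists drawn up for the cells were not used. The comparison, the features and the rules were chosen with earlier results of these data known. The fold statistic was run on simulated data with known folds and the same spread in both settings. The real cells spread more in tissue than in culture, so that run gives no rate of false calls for these data. Scaling alternatives used edgeR 4.0.16 (TMM) and DESeq2 1.42.0 size factors; no model was fitted. Other steps used Python 3.11.15, numpy 2.4.6 and pandas 2.3.3.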

Additional observations from a re-analysis of the deposited data

Results flagged for a closer look

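Several measures of how reads were spread over features had opposite directions in the 2 pairs of hippocampal groups, with every tissue library on one side of every cultured library by pipette and on the other side by TIVA. None of these differences between the collections was tested. The share of reads in the most abundant feature, tissue minus culture, differed between medians by 3.18 percentage points by pipette and by -14.9 by TIVA. For the 10 most abundant features the differences were 4.13 by pipette and -40.4 by TIVA, for the 50 most abundant 6.91 and -35.7, and for the 500 most abundant 10.3 and -20.2 percentage points. The cultured TIVA libraries were widely spread. Their 10 most abundant features took 38.4%, 62.4%, 58.3% and 16.5% of the reads, against 6.83% to 8.21% in the tissue TIVA libraries.

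The number of features that held 50% of the reads was lower in tissue by pipette, by a difference of -307, and higher by TIVA, by 488.5. In the cultured TIVA libraries this number was 153, 4, 4 and 459, against 524 to 604 in the tissue TIVA libraries. At 50 CPM or more the tissue minus culture difference in features was -671 by pipette and 1318 by TIVA. Among single features, 10 were past 4-fold higher in tissue by pipette and past 4-fold lower by TIVA with ranges apart in both, which is 8.85% of the 113 such features higher by pipette, against 0.615% of all 8294 that were lower by TIVA in this way. The opposite pattern was met by 2, or 0.336% of the 596 lower by pipette, against 1.83% of all features. With the same direction in both collections there were 17 higher, or 15.0% of the 113 against 1.83% of all features, and 9 lower, or 1.51% of the 596 against 0.615%. These shares were not matched for level.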

How the results depend on the processing

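The difference in features detected kept its direction under each alternative run: it was -8071 at 5 reads, -6891 at 10 reads and -8097 at 1000000 reads, and -10328 to -8456 without 1 library. The share of reads in the most abundant features differed by 4.13 percentage points over 10 features and 10.3 over 500, and without 1 library by 5.47 to 7.86. The gap in correlation is the mean of both within-setting medians minus the median between settings. It was 0.161 (0.121 to 0.166 without 1 library), 0.0791 with no filter and 0.259 at a mean of 50 CPM or more. The median was 0.579 within tissue and 0.877 within culture, against 0.567 between settings, so the cultured neurons made up nearly all of the gap.

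Features past 4-fold higher in tissue numbered 268 with a pseudocount of 1 CPM, 46 with 50 CPM, 335 with TMM, 375 with DESeq2 size factors, 318 with summed counts, 333 relative to the median (chosen after seeing the data) and 139 to 227 without 1 library. Features lower in tissue numbered 2481 and 66 with these pseudocounts, 353 at a mean of 50 CPM or more, 256 with TMM, 214 with DESeq2, 217 relative to the median and 620 to 937 without 1 library. The median log2 difference of -0.53 was -1.06 and -0.20 with the pseudocounts, -0.054 with no filter, -0.31 at a mean of 50 CPM or more, -0.24 with summed counts, -0.51 without the 50 most abundant features, -0.62 to -0.46 without 1 library, and reversed to 0.025 with TMM and 0.12 with DESeq2; the cause was not tested.

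Features of tissue at 0 in every cultured library numbered 1 at a limit of 10 CPM and 0 without any 1 library, and features of culture at 0 in every tissue library 21 at 20 CPM, 86 at 10 CPM and 6 to 14 without 1 library. The share of abundant culture features missing from a tissue neuron was 4.30% at 20 CPM, 0.613% at 200 CPM, 5.42% when missing meant below 1 CPM and 1.03% to 2.20% without 1 library; the reverse share was 0%, 0.0643% below 1 CPM and 0% to 0.0496% without 1 library. The share of higher features on the same side by TIVA was 66.4% with a pseudocount of 1 CPM and 62.1% without the 50 most abundant features. It was 68.3% with DESeq2 and 65.6% to 80.0% without 1 library. For lower features it was 60.5%, 70.8%, 66.4% and 45.2% to 50.5%. Among all features compared, 49.8% were higher in tissue by TIVA and 50.2% lower with the pseudocount of 1 CPM. Without the 50 most abundant features these were 33.1% and 66.9%, and with DESeq2 48.1% and 51.9%. The shares of the called features are over those called anew under each setting. The features called by CPM were also held fixed, a choice made after seeing the data. The shares were then 63.7% for higher and 68.1% for lower features without the 50 most abundant in the TIVA scaling. With DESeq2 they were 75.6% and 58.7%. Among all features compared, the same shares were 33.6% and 66.4% without the 50 most abundant, and 47.3% and 52.7% with DESeq2. The 4 named features kept their direction in all the alternatives run for them. They had been chosen for the greatest differences with ranges apart, so this is no separate support for them. No paired analysis was possible because the replicate numbers only name the cells. The common depth is that of the second tissue library, and 3 cells of unknown animals stand behind each setting.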

Other observations

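The 4 named hippocampal features were also read in cortex, which took no part in choosing them. In the 2 cortical tissue neurons captured by TIVA, uc007war.1 had 458 and 113 CPM, against 21.5, 49.0, 78.8 and 27.2 CPM in the 4 cultured cortical TIVA neurons, with no overlap. In the 4 cultured cortical pipette neurons it had 4.86, 169, 0.267 and 0.0868 CPM, the last from 1 read, so that 1 of the 4 lay between the tissue cells. The levels of uc009lwp.1 were low in cortical tissue, at 180 and 23.2 CPM, and overlapped those of the cultured cortical TIVA neurons, at 96.9, 83.0, 199 and 29.1 CPM.

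Of the features lower in hippocampal tissue, uc008ada.2 had 440.02 and 58.7 CPM in the cortical tissue neurons, against 63.4, 135, 82.2 and 108 CPM in the cultured cortical TIVA neurons, with overlap. The cultured cortical pipette neurons held 222, 2453, 148 and 1315 CPM of it. For uc009jeg.1 the cortical tissue neurons had 93.1 and 0.189 CPM, against 55.8, 86.6, 113 and 55.7 CPM in the cultured cortical TIVA neurons. In the cultured cortical pipette neurons this feature had 412, 502, 583 and 1333 CPM, all above every cortical and hippocampal tissue neuron except the fifth hippocampal tissue TIVA neuron, at 449 CPM.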
